A study of Mus musculus with 9 samples.

Results

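The expression of 10 genes of serine, glycine and folate metabolism was followed in 9 RNA-seq libraries of BCR/ABLp185+ cells. The genes were Phgdh, Psat1 and Psph of serine synthesis, Shmt1 and Shmt2 of serine to glycine conversion, Mthfd1, Mthfd2 and Mthfd1l of the folate pathway, and Gldc and Amt of the glycine cleavage system. They are 10 of the 50686 genes in the deposited tables and were matched by symbol. They were selected on their levels and log2 fold changes between these lines, with earlier results of the same libraries in view, so the differences between lines in these genes are given as a description, with no test. BCR/ABLp185 is the fusion kinase of human lymphoid leukemia, and the cells are mouse bone marrow cells (C57BL/6N background) that had been transformed with a retrovirus encoding it. All lines carried this oncogene and grew in RPMI medium with fetal calf serum. 1 line came from wild-type (wt) marrow, 1 from Stat5a-/- marrow and 1 from Stat5b-/- marrow, and each was measured in 3 technical replicates. STAT5A and STAT5B are related transcription factors downstream of BCR/ABL, and the comparison asks what the loss of each does to the transformed cell. With 1 established line per genotype, a difference between genotypes and a difference between lines cannot be told apart, and the spread between libraries is technical. Lines without Stat5b grew out rarely and late in the study, so that genotype is represented by 1 of the few lines that grew out.

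Serine is made from the glycolytic intermediate 3-phosphoglycerate by PHGDH, PSAT1 and PSPH in turn. Serine hydroxymethyltransferases then split serine into glycine and a folate-bound carbon unit, SHMT1 in the cytosol and SHMT2 in mitochondria, and MTHFD1 in the cytosol and MTHFD2 and MTHFD1L in mitochondria carry that unit between its oxidation states for purine, thymidylate and formate production. The glycine cleavage system, in which GLDC and AMT are the P and T proteins, breaks glycine down in mitochondria and is known above all from liver, brain and some tumors. Proliferating lymphoid cells are known to draw heavily on the mitochondrial arm, and ATF4 and MYC are known activators of several of these genes.

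Library totals lay between 11948136 and 19016396 counted reads. The targeted genes followed the labels. Stat5a was at 12.4 normalized CPM in Stat5a-/- against 43.1 in wt, and Stat5b at 63.4 in Stat5b-/- against 106 in wt. Reads remained on both, and Stat5b was lower by only 1.66-fold (log2 fold change -0.73). The other gene was above wt in each knockout line, with Stat5a at 83.7 in Stat5b-/- and Stat5b at 142 in Stat5a-/-. B-lineage markers were present in every library (summed level over 9 genes of 4690 to 4990 normalized CPM in wt, 6450 to 7150 in Stat5a-/- and 5740 to 6590 in Stat5b-/-, so higher in both knockout lines without overlap), except that Rag1 was at or near 0 in the knockout lines. T-lineage transcripts were also found: all 14 T-cell markers had more than 10 counts in every library, and their summed level was 1000 ± 161 normalized CPM (SD over 3 libraries) in wt, 1570 ± 121 in Stat5a-/- and 2190 ± 431 in Stat5b-/-. In bulk RNA, fewer cells of a type and less RNA per cell cannot be told apart. Myeloid markers summed to between 17.3 and 18.7 normalized CPM in wt, 13.6 and 15.0 in Stat5a-/- and 19.5 and 22.1 in Stat5b-/-, with Elane at 0 in both knockout lines and Mpo at 0 in Stat5b-/-. Erythroid markers summed to between 11.2 and 14.2 in wt and Stat5a-/- and to between 2.47 and 3.05 in Stat5b-/-, and the 4 NK markers to between 66.1 and 105 in wt and Stat5a-/- and to between 116 and 182 in Stat5b-/-. The part of these other marker sums in the results was not tested. The T-lineage sum was ordered wt, Stat5a-/-, Stat5b-/-, the reverse of the order of several members, and values with the log2 T-lineage share as a covariate are given below for many of the named genes. That share differs between the lines themselves, so the covariate also takes up differences between genotypes.

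Serine synthesis genes were lower in both knockout lines than in wt. The larger differences were in Psat1 and Psph. Psat1 was lower by about as much in both lines, whereas Psph was lowest in Stat5b-/-. The limits of the study, an adjusted p under 0.05 and an absolute log2 fold change above 1, were applied to the members only to count them beside all genes, and are no test of genes picked on these values. In Stat5a-/- against wt, 1 of the 10 genes was past both limits downward (Psat1) and 1 upward (Gldc), where over all 13852 tested genes 6.49% were past them downward and 7.75% upward. In Stat5b-/- against wt, 2 were past them downward (Psat1 and Psph) and 0 upward by edgeR and by DESeq2, where over all tested genes the shares were 8.44% and 10.6%. In Stat5b-/- against Stat5a-/-, 1 was past them downward (Gldc) and 0 upward by both tools, where over all tested genes the shares were 6.6% and 4.81%. The median log2 fold change of the 10 genes was -0.17, -0.35 and -0.27 in these comparisons, where that of all tested genes was 0.01, 0.02 and 0.02. Nothing is read from these counts, since the genes were picked for how they differ here.

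**Figure D1:**
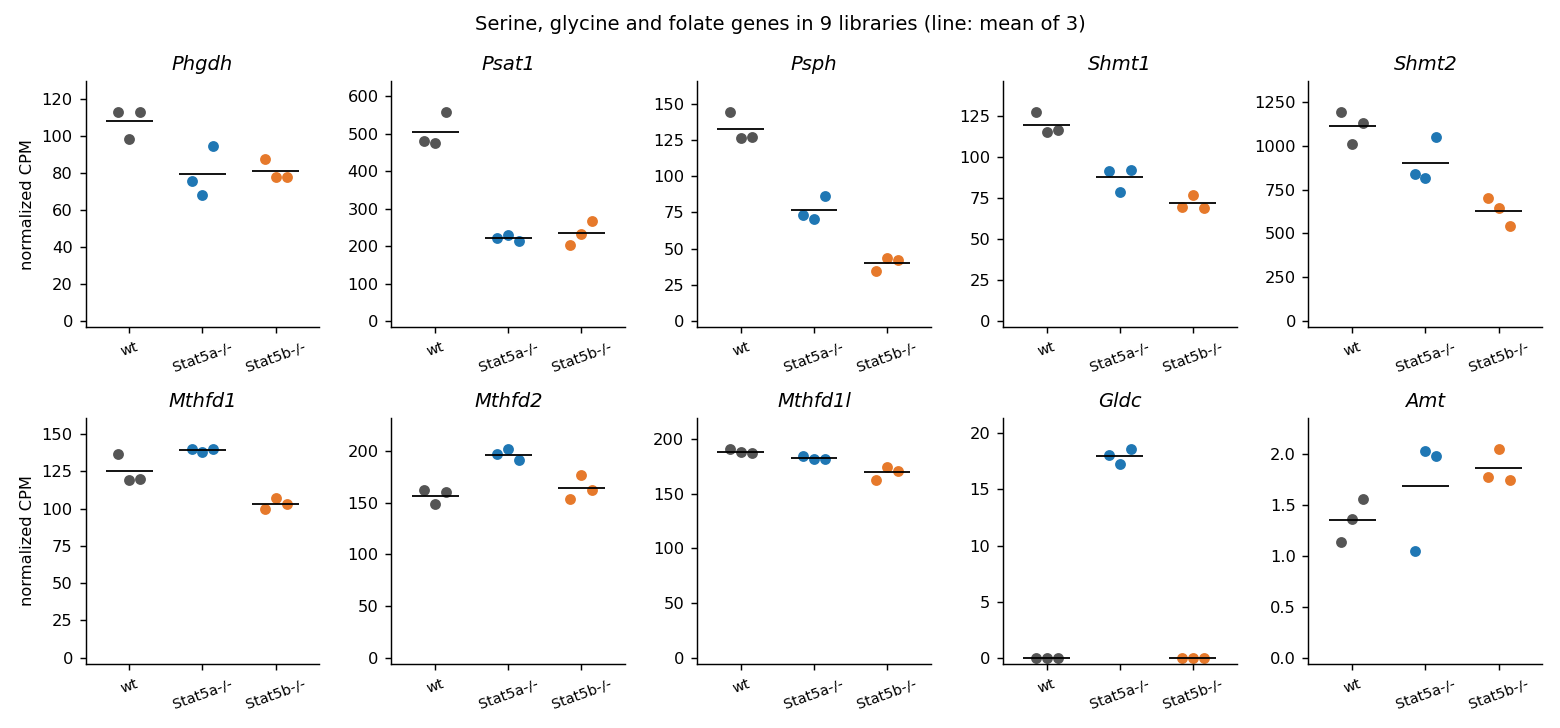
Normalized CPM (y axis, from 0) of the 10 genes in the wt, Stat5a-/- and Stat5b-/- libraries, with 1 point per library and a line at the mean of 3. Every knockout library lies below every wt library in Phgdh, Psat1, Psph and Shmt1, and Gldc has reads in the Stat5a-/- libraries only.

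Phgdh encodes the dehydrogenase of the first committed step of serine synthesis (ENSMUSG00000053398.11, chromosome 3 from 98313170 to 98339990, GRCm38). It had 113, 98.5 and 113 normalized CPM in the wt libraries, 75.7, 68.3 and 94.8 in Stat5a-/- and 87.5, 77.8 and 77.9 in Stat5b-/-. All knockout libraries lay below all wt libraries, and the knockout lines overlapped each other. The fold change was 1.36 downward in Stat5a-/- (log2 fold change -0.45, SE 0.12) and 1.34 downward in Stat5b-/- (-0.42, SE 0.12), with 0.03 (SE 0.12) between the knockouts. Without Stat5a-/- replicate 3, the highest of that line, the fall in Stat5a-/- was larger, and over all libraries left out in turn it ranged from -0.62 to -0.36. With the T-lineage share as a covariate the values against wt were -0.33 and -0.21. With an offset for GC content the value was -0.65 in Stat5a-/- against wt and 0.24 (SE 0.09) between the knockouts.

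Psat1 encodes the aminotransferase of the following step (ENSMUSG00000024640.9, chromosome 19 from 15904678 to 15947337). Its level was 480, 475 and 557 normalized CPM in wt, 223, 230 and 215 in Stat5a-/-, and 204, 233 and 266 in Stat5b-/-. The wt libraries stood well above the other 6, which were mixed among themselves. Psat1 was 2.26-fold lower in Stat5a-/- (log2 fold change -1.18, SE 0.11) and 2.15-fold lower in Stat5b-/- (-1.11, SE 0.11). Both values are just past the fold limit. Psat1 lies on a chromosome that as a whole was higher in Stat5a-/-: the median log2 fold change of 470 other tested genes of chromosome 19 was 0.41 in Stat5a-/- against wt and 0.04 in Stat5b-/- against wt. Relative to that median, Psat1 was at -1.59 in Stat5a-/- and -1.14 in Stat5b-/- against wt, and at 0.50 in Stat5b-/- against Stat5a-/-, where the value without this step was 0.07.

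Psph encodes the phosphatase that releases serine (ENSMUSG00000029446.14, chromosome 5 from 129765558 to 129787449). Its level was 144, 126 and 127 normalized CPM in wt, 73.0, 70.5 and 86.4 in Stat5a-/-, and 34.4, 43.2 and 42.3 in Stat5b-/-. The lines formed a ladder with no overlap at either step. Psph was 1.73-fold lower in Stat5a-/- (log2 fold change -0.79, SE 0.12) and 3.32-fold lower in Stat5b-/- (-1.73, SE 0.12) than in wt. Between the knockouts it was 1.92-fold lower in Stat5b-/- (-0.94, SE 0.12), just inside the fold limit, which it crossed at -1.01 without Stat5a-/- replicate 2. With the T-lineage share as a covariate, its log2 fold changes were -0.48, -1.19 and -0.71. Psph overlaps Cct6a on the opposite strand, a chaperonin gene with 2900 to 7524 counts per library, and the counting did not use strand.

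The balance within the serine branch differed between lines. Both ratios below were taken per kilobase of exon. That of Psph to Phgdh was 0.704 ± 0.052 (SD over 3 libraries) in wt, 0.557 ± 0.0351 in Stat5a-/- and 0.286 ± 0.0518 in Stat5b-/-, with no overlap between lines. The ratio of Psat1 to Phgdh was 2.72 ± 0.218 in wt, 1.67 ± 0.328 in Stat5a-/- and 1.70 ± 0.323 in Stat5b-/-, with the knockout lines alike in range and below wt. Ratios within a library do not depend on the scaling between libraries.

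Both hydroxymethyltransferases were lower in Stat5b-/- than in wt and Stat5a-/-, and their proportion to each other stayed in 1 range. Shmt2 encodes the mitochondrial enzyme (ENSMUSG00000025403.5, chromosome 10 from 127517123 to 127522444). It was read at 1190, 1010 and 1130 normalized CPM in wt, 837, 818 and 1050 in Stat5a-/-, and 699, 643 and 543 in Stat5b-/-. Stat5b-/- libraries lay below all others, while the highest Stat5a-/- library reached into the wt range. Shmt2 was 1.77-fold lower in Stat5b-/- than in wt (log2 fold change -0.82, SE 0.13) and 1.43-fold lower than in Stat5a-/- (-0.52, SE 0.13), and the value in Stat5a-/- against wt was -0.30 (SE 0.13). With the T-lineage share as a covariate these values were -0.47, -0.37 and -0.10, and with an offset for GC content -0.81, -0.31 and -0.50.

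Shmt1 encodes the cytosolic enzyme (ENSMUSG00000020534.14, chromosome 11 from 60788104 to 60811718). Its level was 127, 115 and 116 normalized CPM in wt, 91.5, 78.4 and 92.2 in Stat5a-/-, and 69.4, 76.5 and 69.0 in Stat5b-/-. The order wt, Stat5a-/-, Stat5b-/- held without overlap, though the lowest Stat5a-/- and the highest Stat5b-/- library were close. The log2 fold changes were -0.45 (SE 0.10) in Stat5a-/- and -0.74 (SE 0.10) in Stat5b-/- against wt, and -0.29 (SE 0.10) between the knockouts. They were -0.23, -0.35 and -0.13 with the T-lineage share as a covariate. Shmt1 overlaps Smcr8 on the opposite strand, which held 643 to 1330 counts per library. Per kilobase of exon, the ratio of Shmt2 to Shmt1 was 11.6 ± 0.557 (SD over 3 libraries) in wt, 12.9 ± 1.40 in Stat5a-/- and 11.0 ± 1.45 in Stat5b-/-, with overlapping ranges.

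The promoter of Shmt2 is shown because, among the 10 genes, it was the one whose window held the palindromic motif bound by STAT5 proteins. The motif searched was TTCNNNGAA on both strands, in windows of 250 bases before to 50 after the RefSeq start (GRCm38.p6). It occurred in 8.30% of 32851 promoters and in 1 of the 10 members. The 250 bases before the start of Shmt2 are chr10:127522445-127522694 on the minus strand, written 5′ to 3′ with the motif in capitals, beginning 55 bases before the start.
Shmt2 promoter: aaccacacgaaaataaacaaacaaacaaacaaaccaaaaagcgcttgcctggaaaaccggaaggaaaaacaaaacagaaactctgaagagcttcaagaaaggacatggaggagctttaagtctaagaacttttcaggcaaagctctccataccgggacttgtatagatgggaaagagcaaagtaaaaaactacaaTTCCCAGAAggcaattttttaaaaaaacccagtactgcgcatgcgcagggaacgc
The letters TGATGNAA, the core of amino-acid response elements, and CACGTG, the E-box bound by MYC, occurred in 3.97% and 7.15% of promoters and in 0 of the 10 members, which says only that these letters are not in these windows. A match is a description of the sequence, and binding was not measured.

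**Figure D2:**
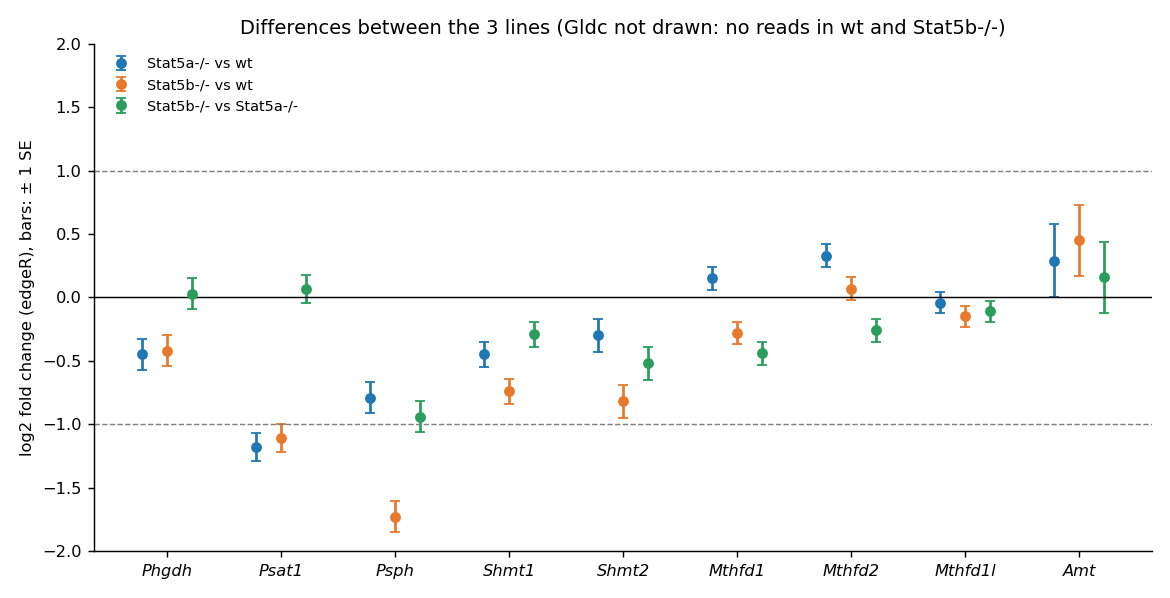
Log2 fold change (y axis, edgeR, bars ± 1 SE) of 9 genes in Stat5a-/- against wt, Stat5b-/- against wt and Stat5b-/- against Stat5a-/-, with dashed lines at the fold limit. Psat1 and Psph reach the limit, the Mthfd genes lie between -0.44 and 0.33, and Gldc is not drawn because it had no reads in wt and Stat5b-/-.

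The log2 fold changes of the 3 folate enzymes against wt lay between -0.28 and 0.33, and none of their values reached the fold limit. Mthfd2 encodes the mitochondrial dehydrogenase and cyclohydrolase that is typical of proliferating and embryonic cells (ENSMUSG00000005667.8, chromosome 6 from 83305691 to 83325908). It was at 162, 149 and 160 normalized CPM in wt, 197, 202 and 191 in Stat5a-/-, and 154, 177 and 162 in Stat5b-/-. Stat5a-/- libraries lay above all others, and wt and Stat5b-/- overlapped. The log2 fold change was 0.33 (SE 0.09) in Stat5a-/- against wt, 0.07 (SE 0.09) in Stat5b-/- against wt and -0.26 (SE 0.09) between the knockouts. The median of 693 other genes of chromosome 6 was 0.22 in Stat5b-/- against wt, and relative to it Mthfd2 was at -0.16. With the T-lineage share as a covariate the values against wt were 0.48 and 0.32, and that between the knockouts was -0.16.

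Mthfd1 encodes the cytosolic trifunctional enzyme (ENSMUSG00000021048.7, chromosome 12 from 76255298 to 76319803). Levels of 137, 119 and 120 normalized CPM were found in wt, 140, 138 and 140 in Stat5a-/-, and 99.6, 107 and 103 in Stat5b-/-. Stat5a-/- libraries lay above wt by a narrow margin and Stat5b-/- libraries lay below both. The log2 fold changes were 0.15 (SE 0.09) and -0.28 (SE 0.09) against wt and -0.44 (SE 0.09) between the knockouts, and the value in Stat5b-/- against wt turned to 0.02 with the T-lineage share as a covariate. The value in Stat5a-/- was 0.33 with that covariate and 0.04 with an offset for GC content. Mthfd1l, the mitochondrial formyltetrahydrofolate synthetase (ENSMUSG00000040675.17, chromosome 10 from 3973118 to 4167081), was the steadiest member. It ranged from 187 to 191 normalized CPM in wt, from 182 to 185 in Stat5a-/- and from 163 to 175 in Stat5b-/-, with log2 fold changes of -0.04, -0.15 and -0.11 (SE 0.08 each). These were 0.02, -0.04 and -0.06 with the T-lineage share as a covariate, and -0.13, -0.15 and -0.01 with the GC offset.

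The balance of the mitochondrial to the cytosolic dehydrogenase was lowest in wt and highest in Stat5b-/-. Both ratios here were taken per kilobase of exon. That of Mthfd2 to Mthfd1 was 1.60 ± 0.09 (SD over 3 libraries) in wt, 1.80 ± 0.06 in Stat5a-/- and 2.03 ± 0.0721 in Stat5b-/-, with no overlap. The ratio of Mthfd1l to Mthfd1 did not follow this order, with 1.51 ± 0.0987 in wt, 1.32 ± 0.0153 in Stat5a-/- and 1.65 ± 0.0115 in Stat5b-/-. Mthfd2l, the close relative of Mthfd2, had little expression, at 5.89 ± 0.985 normalized CPM in wt, 7.37 ± 1.00 in Stat5a-/- and 5.80 ± 1.58 in Stat5b-/-, and its lines overlapped. Its log2 fold change in Stat5a-/- against wt was 0.32 (adjusted p = 0.251 by edgeR), and 0.47 (adjusted p = 0.0216) with the GC offset.

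Gldc showed the sharpest pattern of the 10 genes. It encodes the glycine decarboxylase, the P protein of the glycine cleavage system (ENSMUSG00000024827.9, chromosome 19 from 30098449 to 30175418, minus strand). The Stat5a-/- libraries held 259, 213 and 206 reads, or 18.1, 17.3 and 18.6 normalized CPM, and the 3 wt and the 3 Stat5b-/- libraries held 0 reads each. The reads were thus found in 1 line alone, and evenly in its replicates. A count of 0 over the wt libraries allows up to 3 counts, or 0.0567 normalized CPM, and over the Stat5b-/- libraries up to 0.0708 normalized CPM, for counting error only. Against these floors Gldc was at least 317-fold higher in Stat5a-/- than in wt and at least 254-fold higher than in Stat5b-/-. Gldc passed the filter on low counts through the Stat5a-/- libraries alone, so it had to differ, and between wt and Stat5b-/- no fold can be given.

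Gldc and its surroundings were also looked at by position. Of the 14 other tested genes within 1000 kb, Uhrf2, a ubiquitin ligase gene whose end lies next to that of Gldc on the facing strand, went from 63.8 to 154 normalized CPM in Stat5a-/- (log2 fold change 1.27, SE 0.12), against 0.14 in Stat5b-/-. Ermp1 was at 0.19 and Cstf2t at -0.43 in Stat5a-/-. Pdcd1lg2, an immune checkpoint ligand gene, went from 0.582 to 5.19 normalized CPM in Stat5a-/- (3.17, SE 0.31) and was at 1.34 in Stat5b-/-. These neighbours were chosen after their values were seen, and the reads of Rpl31-ps20, a pseudogene that lies within Gldc on the opposite strand, stayed between 6 and 22 per library in all lines.

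**Figure D3:**
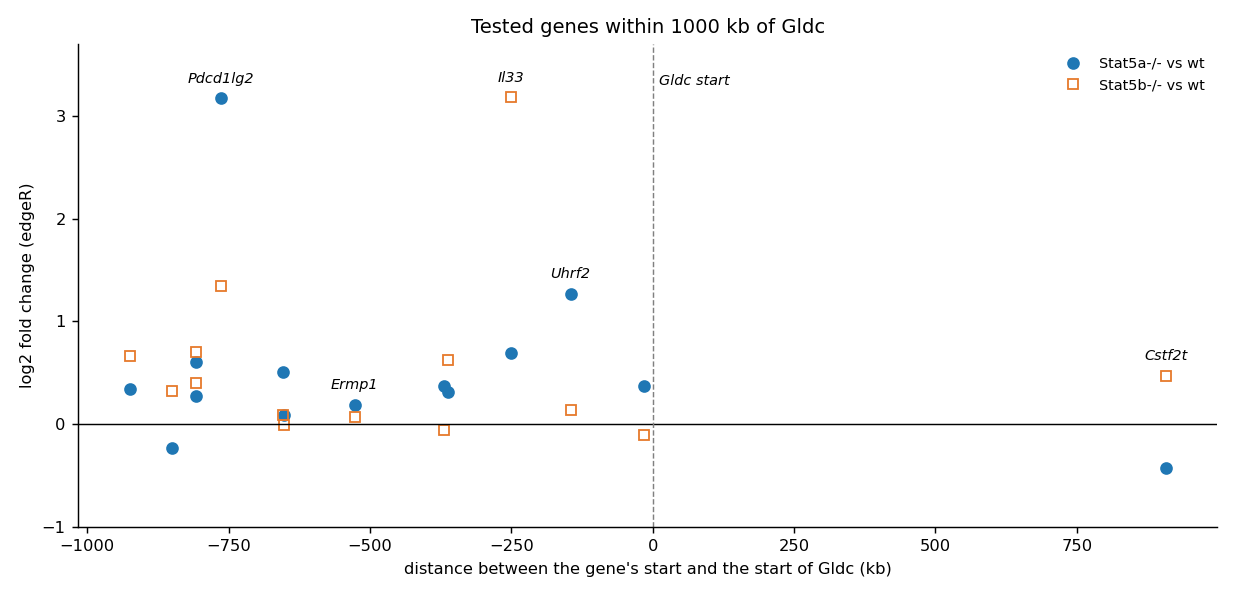
Log2 fold change (y axis, edgeR) of the 14 other tested genes within 1000 kb of Gldc against the distance from their start to that of Gldc (x axis, kb), for Stat5a-/- (filled circles) and Stat5b-/- (open squares) against wt. Uhrf2 and Pdcd1lg2 are high in Stat5a-/-, and Il33 is high in Stat5b-/- at 3.18.

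The upstream sequence of Gldc is shown as that of the member that went from no reads to a clear level. The 250 bases before its RefSeq start are chr19:30175442-30175691 on the minus strand (GRCm38.p6), with none of the motifs searched and so no capitals. It has 8 CpG sites and a GC content of 59.6%, where the window of Shmt2 has 7 and 40.8%.
Gldc promoter: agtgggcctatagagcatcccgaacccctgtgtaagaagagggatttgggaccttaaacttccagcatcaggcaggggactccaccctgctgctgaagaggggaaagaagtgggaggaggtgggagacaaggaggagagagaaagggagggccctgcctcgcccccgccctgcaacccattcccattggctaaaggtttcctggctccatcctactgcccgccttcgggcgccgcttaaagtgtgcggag
The tested genes whose log2 level ran most like that of Gldc over the 9 libraries were Dmrt2, S100a6 and Stum, each with a Pearson correlation of 0.999, and 235 genes were above 0.95. The 9 points fall into 3 lines, so such values mark genes that stand apart in the Stat5a-/- line. Dmrt2, also on chromosome 19, had 18 to 25 reads in Stat5a-/- and 0 elsewhere, and Stum had 1594 to 1970 in Stat5a-/- against at most 5 in any other library. For Phgdh the nearest were Acaca (0.985), Nol9 (0.965) and Ung (0.964), and 6 genes were above 0.95.

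Amt encodes the aminomethyltransferase, the T protein of the same complex (ENSMUSG00000032607.12, chromosome 9 from 108296853 to 108302302). It was near the lower end of what these libraries measure, with 15 to 30 reads per library. Its levels were 1.14, 1.36 and 1.56 normalized CPM in wt, 1.05, 2.03 and 1.98 in Stat5a-/-, and 1.78, 2.05 and 1.75 in Stat5b-/-. All Stat5b-/- libraries lay above all wt libraries, and those of Stat5a-/- overlapped both. The log2 fold changes of 0.29 (SE 0.29), 0.45 (SE 0.28) and 0.16 (SE 0.28) rest on few reads and carry large errors. The other proteins of the complex were well expressed. Gcsh, the H protein, was at 85.6 ± 4.88 normalized CPM in wt, 78.7 ± 3.56 in Stat5a-/- and 54.5 ± 1.80 in Stat5b-/-, and fell in Stat5b-/- against wt (log2 fold change -0.65, SE 0.09, adjusted p = 8.19e-05 from the quasi-likelihood test of edgeR, adjusted by Benjamini-Hochberg over all tested genes, as for every adjusted p here) and against Stat5a-/- (-0.53, adjusted p = 0.000752). The value against wt no longer passed with the T-lineage share as a covariate (-0.38, SE 0.21, adjusted p = 0.274). Dld, the L protein shared with other dehydrogenase complexes, was at -0.53 in Stat5b-/- against wt (SE 0.17, adjusted p = 0.0236) and -0.41 in Stat5a-/- (SE 0.17, adjusted p = 0.083). The Stat5b-/- value was -0.99 (SE 0.44, adjusted p = 0.17) with that covariate, and it did not pass either without wt replicate 2 or 3 or without Stat5b-/- replicate 1 or 2. In Stat5a-/- it was -0.28 (adjusted p = 0.0348) with the GC offset. Gcsh, Dld and Amt had reads in every library, and Gldc in those of Stat5a-/- alone.

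Compared per kilobase of exon, the 10 genes had a similar order in the 3 lines. Shmt2 was highest everywhere, at 357 normalized CPM per kb in wt, 290 in Stat5a-/- and 202 in Stat5b-/-. Psat1 came next in wt at 118, clear of Mthfd2 at 45.0, Phgdh at 43.6 and Mthfd1l at 42.5, which overlapped as neighbours in that order. In Stat5a-/- Mthfd2 (56.5) stood above Psat1 (52.3), and in Stat5b-/- Psat1 (55.1) and Mthfd2 (47.1) overlapped. Psph was level with Shmt1 and Mthfd1 in wt, at 30.6, 30.8 and 28.2, and lay below both without overlap in Stat5a-/-, at 17.7 against 22.5 and 31.4, and in Stat5b-/-, at 9.23 against 18.5 and 23.2. The glycine cleavage genes were lowest, with Gldc at 4.80 in Stat5a-/- and Amt between 0.556 and 0.764 in the means of the lines. The lowest wt level above these was that of Mthfd1.

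**Figure D4:**
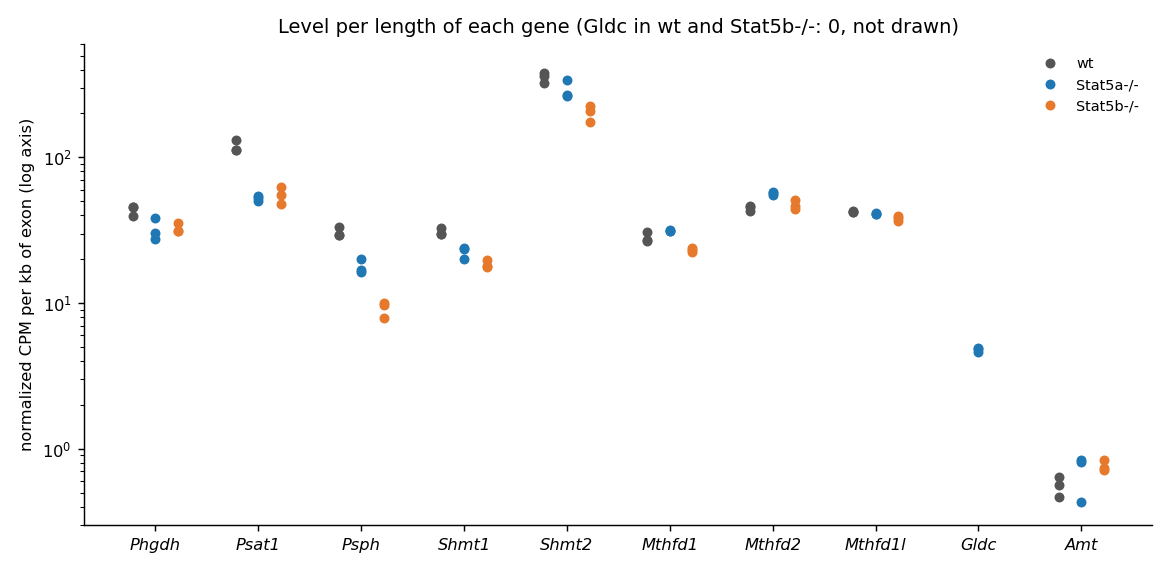
Level per length (y axis, normalized CPM per kb of exon, log axis) of the 10 genes, with 1 point per library and a colour per line. Shmt2 is highest in every line, Amt is below 1, and Gldc is drawn for Stat5a-/- only because it was 0 in the other lines.

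The wider pathway was read from 68 further genes in 6 lists. Enough reads for the test were found in 49 of them. In Stat5a-/- against wt, 1 of these rose and 6 fell past both limits, where 7.75% of all tested genes rose and 6.49% fell. In Stat5b-/- against wt 1 rose and 8 fell, where 10.6% of all rose and 8.44% fell. In Stat5b-/- against Stat5a-/- 1 was higher and 4 were lower, where 4.81% of all were higher and 6.6% lower. By adjusted p alone, without the fold limit, 3 rose and 19 fell in Stat5a-/- (19.8% and 16.3% of all tested genes) and 3 rose and 28 fell in Stat5b-/- (24.2% and 22%). Between the knockouts 6 were higher and 11 lower by this rule (16.4% and 17.5%). The median log2 fold changes were -0.21, -0.41 and -0.09. These lists were drawn up with earlier results of the data known.

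**Figure D5:**
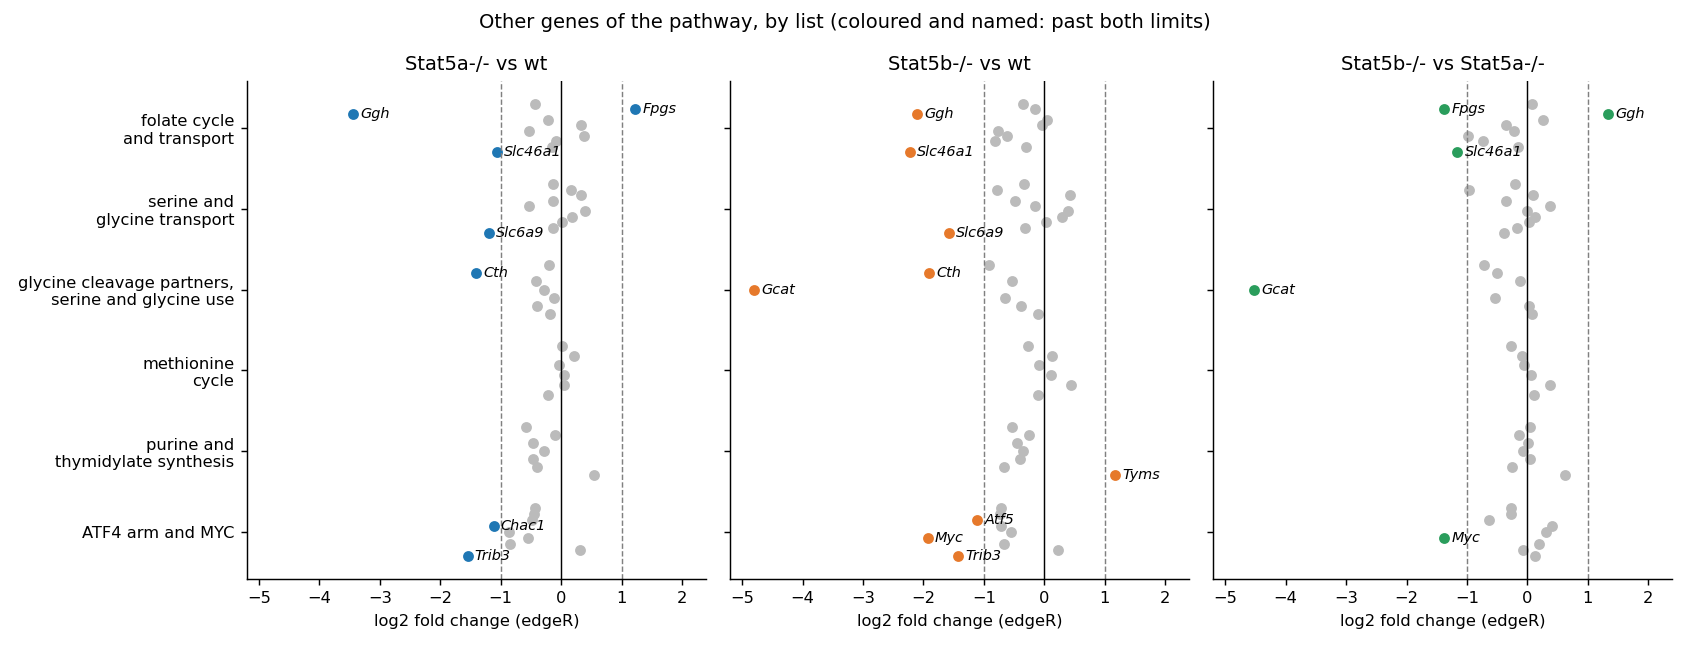
Log2 fold change (x axis, edgeR) of the 49 tested further pathway genes, in rows by list, for each comparison, with dashed lines at the fold limit. Named, coloured points are past both limits, most of them on the lower side, with Gcat lowest at -4.81 in Stat5b-/- against wt.

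The enzymes that add and remove the glutamate tail of folate differed between the lines. Of 15 genes of the folate cycle and transport 10 were tested. Fpgs, which adds the glutamate tail that holds folate in the cell, was at 69.4, 49.0 and 61.0 normalized CPM in wt, 122, 125 and 172 in Stat5a-/-, and 54.6, 59.0 and 46.7 in Stat5b-/-. It rose in Stat5a-/- against wt (log2 fold change 1.22, SE 0.16, adjusted p = 4.37e-05) and was lower in Stat5b-/- than in Stat5a-/- (-1.38, SE 0.16, adjusted p = 2.45e-05), with -0.16 in Stat5b-/- against wt (adjusted p = 0.437). These were 1.72, -1.02 and 0.69 with the T-lineage share as a covariate. Ggh, the hydrolase that removes that tail, had 9.33, 12.5 and 9.93 in wt, 1.26, 1.30 and 0.270 in Stat5a-/-, and 2.88, 1.44 and 3.12 in Stat5b-/-. Every knockout library was below every wt library, and Ggh fell in Stat5a-/- (-3.44, SE 0.35, adjusted p = 5.2e-06; -4.37, adjusted p = 4.68e-05, with the T-lineage share as a covariate) and in Stat5b-/- (-2.10, SE 0.30, adjusted p = 8.37e-05; -3.73, adjusted p = 0.00316, with that covariate). The rise of Ggh in Stat5b-/- over Stat5a-/- (1.33, SE 0.42, adjusted p = 0.0257) rested on 3 to 42 reads per library, and was not past the limits without Stat5a-/- replicate 3, without Stat5b-/- replicate 1 or 3, or with that covariate (0.64, adjusted p = 0.366).

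Of the folate transporters, Slc46a1 and Slc19a1 had lower levels in Stat5b-/- than in wt. Slc46a1, the proton-coupled folate transporter, had few reads and fell in Stat5a-/- against wt (2.92 to 1.40 normalized CPM, log2 fold change -1.07, adjusted p = 0.00335) and in Stat5b-/- (to 0.614, -2.23, adjusted p = 1.99e-05), and was lower in Stat5b-/- than in Stat5a-/- (-1.16, adjusted p = 0.012). With the T-lineage share as a covariate the log2 fold changes were about as large (-1.02, -2.15 and -1.13) with wider errors, and none of the 3 passed (adjusted p = 0.109, 0.0572 and 0.0786). The value in Stat5a-/- against wt was inside the fold limit without Stat5a-/- replicate 2 (-0.96), and that between the knockouts without Stat5a-/- replicate 3 (-0.95) or with the GC offset (-0.97). The reduced folate carrier Slc19a1 was far more abundant, at 177 ± 14.2 normalized CPM in wt, 168 ± 23.4 in Stat5a-/- and 101 ± 14.4 in Stat5b-/-. It fell in Stat5b-/- against wt (-0.81, SE 0.13, adjusted p = 0.000233) inside the fold limit, and was at -0.48 (adjusted p = 0.38) with that covariate. Slc19a1, and below Mtr, Adsl, Paics, Atic and Atf4, were named after their values were seen. The mitochondrial folate carrier Slc25a32 had log2 fold changes of -0.16 and -0.31 against wt (adjusted p = 0.385 and 0.0708; the latter 0.0124 with the GC offset), and Aldh1l2, which oxidizes mitochondrial formyl folate, was below the filter with 0 to 11 reads per library.

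Glycine and cysteine metabolism beside the members held the largest fall among the further pathway genes. Gcat, a mitochondrial ligase that acts in threonine breakdown to glycine, was at 86.2, 57.3 and 68.8 normalized CPM in wt, 49.9, 54.7 and 70.5 in Stat5a-/-, and 2.74, 2.94 and 1.83 in Stat5b-/-. Stat5b-/- stood far below the others, which overlapped. The log2 fold change was -4.81 in Stat5b-/- against wt (SE 0.22, adjusted p = 2.52e-09), -4.53 against Stat5a-/- (SE 0.22, adjusted p = 7.25e-09) and -0.28 in Stat5a-/- against wt (SE 0.17, adjusted p = 0.227). These were -3.57 (adjusted p = 0.000157), -4.02 (adjusted p = 4.27e-07) and 0.45 (adjusted p = 0.2) with the T-lineage share as a covariate. The last was -0.47 (adjusted p = 0.00193) with the GC offset. Cth, which makes cysteine from cystathionine, ranged from 135 to 148 in wt, from 50.7 to 55.7 in Stat5a-/- and from 33.7 to 41.0 in Stat5b-/-. It fell in both (-1.41, SE 0.10, adjusted p = 1.78e-07; -1.91, SE 0.10, adjusted p = 1e-08) and was lower in Stat5b-/- than in Stat5a-/- (-0.50, SE 0.10, adjusted p = 0.00225). Of the 7 tested genes of this list 2 fell past both limits in Stat5b-/- and 6 by adjusted p alone, where the shares over all tested genes were 8.44% and 22%.

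Among 10 tested serine and glycine transporters, Slc6a9 was the one past both limits. That is 1 gene down in Stat5a-/- and in Stat5b-/- against wt, where 6.49% and 8.44% of all tested genes fell past them. By adjusted p alone 2 and 5 fell, where 16.3% and 22% of all did, and 1 rose in each, where 19.8% and 24.2% of all did. Slc6a9, a plasma membrane glycine transporter, fell from 36.7 ± 4.64 normalized CPM in wt to 16.1 ± 5.27 in Stat5a-/- (log2 fold change -1.20, SE 0.20, adjusted p = 0.000395). In Stat5b-/- it was at 12.2 ± 2.04 (-1.58, SE 0.20, adjusted p = 3.43e-05). With the T-lineage share as a covariate it was at -0.66 and -0.64 and no longer passed (adjusted p = 0.127 and 0.387). Sfxn1, the mitochondrial serine carrier, was at 341 ± 11.5 normalized CPM in wt, 312 ± 30.2 in Stat5a-/- and 270 ± 23.8 in Stat5b-/-, a fall in Stat5b-/- of small size (-0.34, SE 0.10, adjusted p = 0.0168), and at -0.24 (adjusted p = 0.596) with that covariate. It also missed the limit without wt replicate 2. Among the further lists, the methionine cycle had the narrowest range of log2 fold changes in each comparison. Mtr, the methionine synthase that regenerates free tetrahydrofolate, was higher in Stat5b-/- than in wt (log2 fold change 0.44, SE 0.10, adjusted p = 0.00232) and than in Stat5a-/- (0.38, SE 0.10, adjusted p = 0.00872), inside the fold limit. Its values with that covariate were 0.50 (adjusted p = 0.18) and 0.41 (adjusted p = 0.0427). The log2 fold changes of the other tested genes of this list lay between -0.28 and 0.21.

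Purine synthesis and thymidylate synthase use the folate-bound carbon. Tyms, the thymidylate synthase, had 45.3, 42.9 and 44.7 normalized CPM in wt, 64.6, 66.9 and 61.9 in Stat5a-/-, and 81.5, 110 and 109 in Stat5b-/-. It rose in Stat5b-/- past both limits (log2 fold change 1.17, SE 0.12, adjusted p = 3.76e-06) and in Stat5a-/- inside the fold limit (0.54, SE 0.12, adjusted p = 0.0028). Of the 7 genes of this list, 4 fell by adjusted p alone in Stat5a-/- and 5 in Stat5b-/-, with Tyms the riser, where the shares of all tested genes that fell were 16.3% and 22%. The 6 purine genes (Ppat, Gart, Pfas, Paics, Adsl and Atic) had negative values against wt in both lines, none past the fold limit. Paics did not pass in either line (-0.28, adjusted p = 0.163, and -0.35, adjusted p = 0.0674), nor did Atic in Stat5a-/- (-0.11, adjusted p = 0.376). Adsl, the lyase that acts at a pair of steps of the route, was at -0.58 (adjusted p = 0.000308) and -0.53 (adjusted p = 0.000451). Adsl was at -0.41 (adjusted p = 0.0575) and -0.24 (adjusted p = 0.505) with the T-lineage share as a covariate.

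Atf4 and Myc, known activators of these genes, were lower in both lines than in wt. Of 9 genes of the ATF4 arm together with Myc, 2 fell past both limits in Stat5a-/- (Trib3 and Chac1), 3 in Stat5b-/- (Trib3, Atf5 and Myc) and 1 was lower in Stat5b-/- than in Stat5a-/- (Myc), where 6.49%, 8.44% and 6.6% of all tested genes did so. By adjusted p alone 7 and 8 fell against wt, where the shares over all tested genes were 16.3% and 22%. Atf4 itself was at 966 ± 33.4 normalized CPM in wt, 708 ± 24.6 in Stat5a-/- and 582 ± 36.1 in Stat5b-/- (log2 fold change -0.45, adjusted p = 0.00191, and -0.73, adjusted p = 3.08e-05, against wt), and its protein was not measured. The Atf4 values were -0.40 (adjusted p = 0.0699) and -0.65 (adjusted p = 0.0836) with the T-lineage share as a covariate. Trib3, a kinase-like target of ATF4, fell by 1.55 and 1.43 on the log2 scale (adjusted p = 3.58e-06 and 5.94e-06), and Chac1, which degrades glutathione, by 1.12 in Stat5a-/- (adjusted p = 1.06e-05). Atf5 fell by 1.11 in Stat5b-/- (adjusted p = 0.00199), which did not pass without wt replicate 1, without Stat5b-/- replicate 3 or with the T-lineage share as a covariate (-0.32, adjusted p = 0.783), and Trib3 in Stat5b-/- did not pass with that covariate either (-0.81, adjusted p = 0.178). Myc was at -1.93 in Stat5b-/- (SE 0.13, adjusted p = 5.29e-08) and -0.55 in Stat5a-/- (SE 0.12, adjusted p = 0.00287), the latter at -0.41 (adjusted p = 0.156) with that covariate. Whether the lower Atf4 and Myc had a part in the members' levels was not tested.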

How the data were processed

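RNA-seq was measured in 9 libraries of 3 mouse cell lines, grouped by the genotype in the titles and labels. The description field of the knockout samples reads as wt lines, against those labels. Reads were trimmed with Trimmomatic and mapped with STAR to GENCODE M13 (GRCm38) by the authors, and the deposited values are raw counts on the union models of 50686 genes from featureCounts 1.5.1. By default this counter ignores strand and drops reads that map to several places or lie on several genes, so overlapping genes and near-identical copies are uncertain. Symbols came from GENCODE M21 (50376 genes named).

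From these counts edgeR 4.0.16 (R 4.3.3) computed TMM factors and quasi-likelihood tests (filterByExpr, glmQLFit, glmQLFTest) in 1 fit of all 9 libraries, with Benjamini-Hochberg adjustment over 13852 genes. SE was obtained by dividing the absolute log2 fold change by the root of F. The p-values measure only the spread between technical replicates. The fit was first tested on simulated data in which 200 genes differed. At these totals a gene with a few reads is imprecise, and intervals and floors cover counting error only, since the reads have no molecular identifiers.

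The 10 members, the further pathway lists and the markers were chosen with earlier results of these data known. Named were all members, each further gene past both limits in any comparison, 7 enzymes and carriers beside the members (2 more of the rule are not reported here), and the 3 genes most correlated with Gldc and with Phgdh (log2 of normalized CPM plus 0.5). Alternatives were RLE or upper-quartile scaling, DESeq2 1.42.0, either no filter or a minimum mean of 10 counts, a fit of just the 2 genotypes in question, each library left out, the replicate number as a block, a GC offset (loess, span 0.5) with and without the block, adjusted p alone, a null value of 1 for the absolute log2 fold change, the log2 T-lineage share as a covariate, and the chromosome's median subtracted. Promoters were RefSeq windows, which matched all 10 members. Protein sequences were not used here.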

Additional observations from a re-analysis of the deposited data

How the results depend on the processing

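The member counts past both limits (up and down 1 and 1 in Stat5a-/- against wt, 0 and 2 in Stat5b-/- against wt, 0 and 1 between the knockouts) stood under RLE and upper-quartile scaling, DESeq2, both filters, the GC offset, the T-lineage covariate and the fit of 2 genotypes. With each library left out the lower count between the knockouts ranged from 1 to 2. By adjusted p alone the counts became 2 up and 4 down (19.8% and 16.3% of all tested genes), 6 down (22%), and 6 down (17.5%). Tested against a log2 fold change of 1, 0 were down in Stat5a-/- and 1 in Stat5b-/- against wt, beside 581 and 727 of all 13852 tested genes. The replicate numbers of the titles did not pair the libraries (mean correlation of deviations -0.111 for the same number, between -0.557 and 0.29, and 0.0551 for different numbers), and with the replicate block the member counts were again 1, 1, 0, 2, 0 and 1.

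Of the further pathway genes, the up count in Stat5a-/- against wt was 2 with DESeq2, without a filter and with 2 genotypes, where Gnmt (3 to 11 reads) was added, and ranged from 1 to 2 with libraries left out (2 without any Stat5b-/- library). By adjusted p alone it was 3, and 0 against a log2 fold change of 1. The down count there was 19 and 3 under these rules. In Stat5b-/- against wt the up count was 3 and 0 and the down count 28 by adjusted p alone, and 4 with the T-lineage covariate. Between the knockouts the up count was 2 without a filter (Aldh1l2 added), 0 to 1 with libraries left out, 6 by adjusted p alone, and 0 against a log2 fold change of 1 or with the covariate. The down count was 11 and 2 under the changed rules. Over all 13852 tested genes, the up and down counts against a log2 fold change of 1 were 636 and 581 in Stat5a-/- against wt, 634 and 727 in Stat5b-/- against wt and 261 and 502 between the knockouts, and with the covariate 827 were down in Stat5b-/- against wt and 486 up between the knockouts. The all-gene up counts in Stat5a-/- against wt were 1106 of 18358 with DESeq2, 1204 of 27545 without a filter and 1022 of 13462 with 2 genotypes, and 800 of 27545 between the knockouts without a filter. The all-gene shares by adjusted p alone stand with the pathway counts above.

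Directions turned only in differences that were not past the limits. With the T-lineage covariate Mthfd1 in Stat5b-/- and Mthfd1l in Stat5a-/- against wt were at 0.02, Fpgs in Stat5b-/- at 0.69, Slc19a1 in Stat5a-/- at 0.11, Gcat, Mthfd2l and Gcsh in Stat5a-/- at 0.45, -0.22 and 0.04, and between the knockouts, Slc6a9 at 0.01. With the chromosome's median subtracted, Phgdh between the knockouts was at -0.05 and Mthfd2 in Stat5b-/- against wt at -0.16. With libraries left out the range was -0.08 to 0.18 for Phgdh, -0.03 to 0.16 for Psat1, -0.11 to 0.32 for Amt, -0.02 to 0.10 for Adsl and -0.30 to 0.03 for Dld between the knockouts, -0.22 to 0.00 for Slc19a1 in Stat5a-/- against wt, and -0.27 to 0.09 for Mthfd2l in Stat5b-/- against wt. The cause of these changes was not tested.

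In all, 22 of the 1898 recomputed log2 fold changes turned, 28 lost a call by both limits and 33 gained a call, nearly all of the latter where the fold limit was dropped. Crossings of the adjusted p limit alone are not in these counts. Depth limits Amt, Slc46a1 and Aldh1l2, and Ggh in the knockout lines, with few reads per library.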
